A study of Rattus norvegicus with 144 samples.

Results

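General endothelial genes are the genes that blood vessel lining cells express in most organs, and 37 of them are described here in rat liver, adrenal and pancreas after oral dosing with either of 2 compounds known by code, AMG A and AMG B. The 37 genes were listed by symbol, and every probe set that the platform annotation gives to exactly 1 of these symbols was taken. In the larger table of array values, 56 probe sets of 31042 belonged to 34 of the listed genes, and 39 probe sets of 15866 in the smaller one belonged to 28. Cdh5, Robo4 and Ednrb had no such probe set in either table and were not analysed here. In the smaller table the same held for Clec14a, Sox18, Sox7, Ecscr, Dysf and Arhgef15.

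The study asked which toxic and transcriptional changes accompany compounds with antiangiogenic pharmacology. Male Sprague Dawley rats of 8 to 10 weeks were dosed orally each day for 1, 4 or 14 days, with AMG A at 30 or 3 mg/kg against 0 mg/kg, or with AMG B at 60 or 3 mg/kg against 0 mg/kg. Each of the 36 groups of tissue, study, dose and day held 4 animals, and 72 animals gave 144 arrays. Liver was profiled on all 3 days in both studies. Adrenal was profiled on all 3 days for AMG B and on day 14 for AMG A, and pancreas on day 14 for both. The labels name no genetic change in any group, and the 0 mg/kg animals of the same study and day served as controls. The sources used here name no vehicle and no molecular target for either compound.

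Vessel lining cells hold a blood vessel together through adhesion and junction proteins, and they sense flow and growth factors through receptors. Transcription factors of the ETS and SOX families keep the endothelial programme running. Much of what these cells express depends on continued signalling by vascular endothelial growth factor (VEGF), and in mice the fenestrated capillaries of endocrine glands are known to respond to its withdrawal. The listed genes were read in 5 groups by role: adhesion and junction (18 probe sets of 13 genes), receptors and signalling (11 of 7), haemostasis and secreted factors (7 of 4), membrane and caveolae (9 of 3) and transcription factors (11 of 7).

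The promoters of 4 genes that are called lower in treated adrenals below are shown to place them in the genome, in RefSeq's GRCr8 assembly. Each window of RefSeq's promoter table runs from 250 bases before the transcript start that the table uses to 50 bases from it, 5′ to 3′ on the gene's own strand. That start lies 94 bases inside the annotated gene span for Emcn, 24 for Mmrn2 and 11708 for Dysf, and at the outer end of the span for Clec14a. Capitals mark matches to the core ETS letters AGGAAG, searched on both strands, so that the reverse complement is also in capitals.
Emcn, chr2:228564289-228564588, plus strand: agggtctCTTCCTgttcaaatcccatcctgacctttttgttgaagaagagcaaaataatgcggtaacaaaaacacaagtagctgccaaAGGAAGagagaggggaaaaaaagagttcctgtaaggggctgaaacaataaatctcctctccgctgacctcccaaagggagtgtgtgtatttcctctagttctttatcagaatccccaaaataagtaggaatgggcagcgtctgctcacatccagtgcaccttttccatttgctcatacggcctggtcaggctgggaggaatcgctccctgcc
Mmrn2, chr16:9711955-9712254, plus strand: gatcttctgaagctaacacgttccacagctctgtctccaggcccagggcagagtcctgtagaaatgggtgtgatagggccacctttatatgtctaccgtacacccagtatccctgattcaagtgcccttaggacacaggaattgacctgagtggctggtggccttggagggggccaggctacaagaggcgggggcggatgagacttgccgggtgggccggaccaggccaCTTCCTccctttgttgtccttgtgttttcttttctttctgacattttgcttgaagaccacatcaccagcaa
Dysf, chr4:118059918-118060217, plus strand: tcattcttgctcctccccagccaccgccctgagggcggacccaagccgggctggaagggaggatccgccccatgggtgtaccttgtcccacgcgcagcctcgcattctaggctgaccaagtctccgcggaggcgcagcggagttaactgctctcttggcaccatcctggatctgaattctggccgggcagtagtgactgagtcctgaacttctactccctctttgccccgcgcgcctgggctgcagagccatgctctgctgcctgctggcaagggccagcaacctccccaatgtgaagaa
Clec14a, chr6:81619507-81619806, minus strand: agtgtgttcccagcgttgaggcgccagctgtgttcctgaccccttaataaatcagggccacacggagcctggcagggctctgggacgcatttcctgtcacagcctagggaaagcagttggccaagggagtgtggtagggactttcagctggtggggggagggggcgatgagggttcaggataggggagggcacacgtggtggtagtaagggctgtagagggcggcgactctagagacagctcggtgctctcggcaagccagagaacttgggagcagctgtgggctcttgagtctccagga
The Emcn window held 2 such matches and the Mmrn2 window 1, while the Dysf and Clec14a windows held none. Of the 37 listed genes, 23 matched an entry of the promoter table, with 27 promoters among 33469 in all. The ETS letters were in 10 of the 27 promoters (37%), against 34.5% of all promoters. A SOX core with the letters AACAAT, on either strand, was in 4 of 27 (14.8%) against 11.7% of all. A GATA core was searched in the same way as AGATAA and was in 2 of 27 (7.41%) against 11.6% of all. These matches describe letters in the windows only.

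The values are the authors' scores. Each probe set had been brought to a mean near 0 and a standard deviation (SD) near 1 over the arrays, so a score says how far an array lies from that probe set's own mean. A difference of scores is no fold change, and scores of different probe sets cannot be compared as levels. A probe set is called below where its adjusted p was under 0.05 in limma's moderated test over all probe sets of the table, with Benjamini-Hochberg adjustment. The labels name single animals, so the 4 values of a group are separate rats. In whole-tissue RNA, fewer endothelial cells and less of a transcript per cell cannot be told apart.

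The tissue labels were borne out by marker genes that are no members. Mean scores of acinar markers lay between 1.55 and 3.13 on pancreas arrays, against -0.45 to -0.40 on liver and adrenal arrays. Adrenal cortex markers lay between 1.08 and 1.96 on adrenal arrays and at -0.67 or below elsewhere. Some arrays stood apart before any comparison. The day 14 adrenal of animal 35, in the AMG B 60 mg/kg group, had a mean fibroblast marker score of 5.78, against -0.50 to -0.38 in the other 3 animals of its group, and a mean medulla marker score of 0.24. Its mean over the 56 endothelial probe sets was 1.22, against -0.39 to -0.19 in those 3. In pancreas, 6 arrays had lymphocyte marker means above 1. They came from 1 animal at 60 mg/kg and 2 at 3 mg/kg of AMG B, and from 1 animal at 30 mg/kg and 2 controls of the AMG A study. For the day 14 adrenals at 60 mg/kg and for pancreas, the main counts and several named values are also given without these arrays.

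**Figure D1:**
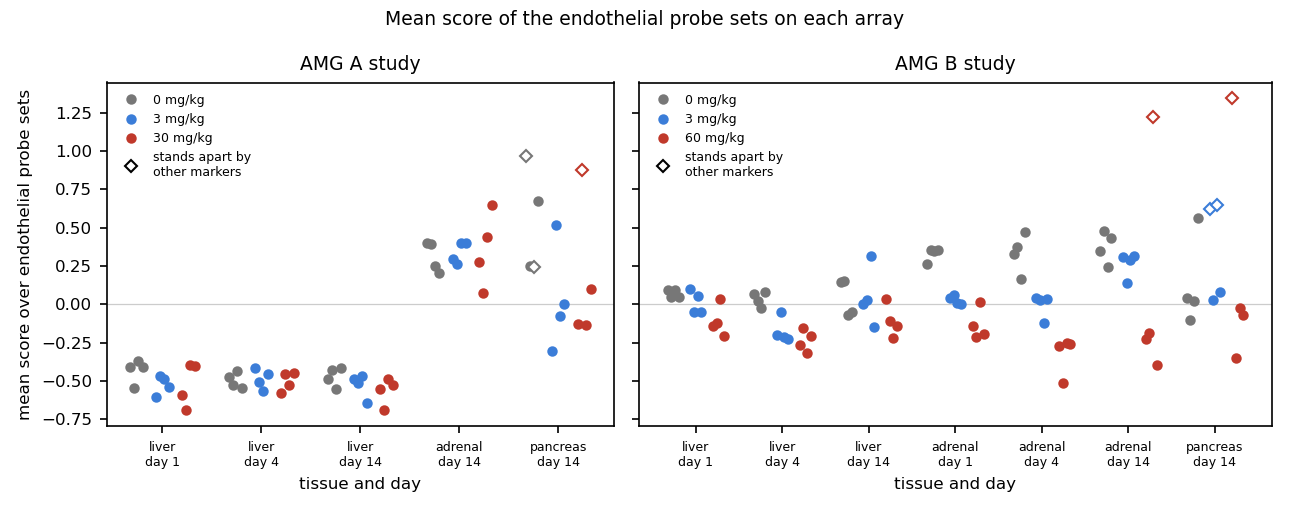
Mean score over the endothelial probe sets (39 for AMG A liver, 56 elsewhere) on each array, by tissue and day, for the AMG A study (left) and the AMG B study (right); each point is 1 animal, grey 0, blue 3 and red 30 or 60 mg/kg, and open diamonds are the adrenal of animal 35 and the 6 pancreas arrays with lymphocyte markers. On days 1 and 4 every AMG B 60 mg/kg adrenal lay below every control adrenal, and the open diamond on day 14 stands at 1.22.

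In adrenals of AMG B treated rats, endothelial genes of several roles were lower from day 1 on. At 60 mg/kg, 5 of 56 endothelial probe sets were called lower on day 1, 8 on day 4 and 7 on day 14, and none was called higher on any day. Over the whole table the called share was 0.335%, 0.889% and 5.96% on these 3 days, and the share called lower was 0.18%, 0.593% and 2.85%. The median difference over the 56 endothelial probe sets was -0.40 on day 1, -0.60 on day 4 and -0.27 on day 14, while the median over all probe sets was 0.011, 0.014 and 0.00087. The difference was negative for 42 of the 56 on day 1, for 48 on day 4 and for 34 on day 14. All 4 treated animals lay below all 4 controls for 16, 23 and 6 of the 56, against 3.22%, 3.51% and 5.12% of all probe sets. The lower day 14 values hold the array of animal 35. Without it the day 14 median was -0.56 (0.0072 over all probe sets), 49 of the 56 differences were negative, and the 3 remaining treated animals lay below all controls for 22 of the 56, against 8.04% of all probe sets.

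Among the adhesion and junction genes, 2 of 18 probe sets were called lower on day 1, 5 on day 4 and 4 on day 14. Emcn encodes endomucin, a sialomucin of capillary and venous endothelium, and lies at chr2:228564445-228644370 in GRCr8. On day 4 its scores in the 60 mg/kg adrenals were 0.16, 0.074, -0.00068 and 0.12, against 2.55, 1.77, 1.74 and 2.14 in the controls. The highest treated adrenal was far below the lowest control. The difference was -1.96 ± 0.21 (SE, n = 4 per group, adjusted p = 3.7e-07). The same separation was seen after 1 dose, with 0.68, 0.59, 0.45 and 0.53 at 60 mg/kg against 2.15, 1.92, 2.07 and 1.49 in controls, a difference of -1.35 ± 0.21 (adjusted p = 0.00075). On day 14 the treated values were -0.13, -0.11, 1.20 and -0.036, against 1.63, 2.21, 1.79 and 1.55. The value of 1.20 was animal 35, and it still lay below every control. The day 14 difference was -1.57 ± 0.21 (adjusted p = 6.1e-06), and -1.89 without that animal.

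Mmrn2 encodes multimerin 2, an extracellular matrix protein of the endothelium that binds CD93 and CLEC14A, and lies at chr16:9712181-9733653. On day 4 its scores were -1.22, -0.86, -0.78 and -0.84 at 60 mg/kg, against 1.95, 1.07, 1.22 and 0.85 in controls. The groups were fully apart, with a difference of -2.20 ± 0.33 (adjusted p = 0.00013). On day 14 the treated adrenals had 0.078, -0.83, 0.76 and -1.05, against 1.18, 2.27, 1.42 and 1.56 in controls, and again did not overlap with them. That difference was -1.87 ± 0.33 (adjusted p = 0.00024). On day 1 the treated adrenals had -0.26, 0.21, 0.58 and 0.49 and the controls 0.46, 1.36, 1.35 and 1.67, with 2 treated adrenals inside the control range, and Mmrn2 was not called.

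Icam2, an adhesion molecule that endothelium carries constitutively, had 2 probe sets. One of them gave -0.50, -0.66, -0.41 and -0.62 on day 1 at 60 mg/kg, against 0.28, 0.24, 0.38 and 0.39 in controls. On day 4 it gave -0.72, -0.82, -0.92 and -0.68 against 0.92, 0.65, 0.068 and 0.48. Neither day showed any overlap, and the differences were -0.87 ± 0.19 (adjusted p = 0.025) and -1.32 ± 0.19 (adjusted p = 6.4e-05). On day 14 the treated values were -0.73, -0.66, 0.71 and -0.82 against 0.56, 0.60, 0.46 and 0.62. Animal 35, at 0.71, was the only treated adrenal within or above the control range. The difference was -0.94 ± 0.19 (adjusted p = 0.0012). The other Icam2 probe set was not called on any day, and its differences on days 1 and 4 were 0.41 ± 0.71 and 0.57 ± 0.71. The day 1 call of Icam2 was lost when any 1 of 7 of the 8 animals was left out, with adjusted p up to 0.077.

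Esam, a tight junction adhesion molecule, was called on day 4 only. It had -0.035, 0.20, -0.29 and 0.22 at 60 mg/kg against 1.13, 1.08, 1.09 and 1.66 in controls, so the groups did not overlap. The difference was -1.22 ± 0.25 (adjusted p = 0.0090), and the adjusted p was 0.055 without the control of 1.66, animal 16. Cd93, the C-type lectin receptor for multimerin 2, gave -1.46, -1.76, -1.49 and -1.39 on day 4 at one of its 2 probe sets, against 0.84, 1.05, 0.68 and 1.04. The gap between the groups exceeded 2 score units in the means, at -2.43 ± 0.57 (adjusted p = 0.023). The call was lost without any 1 of 6 of the 8 animals, with adjusted p up to 0.074. The other Cd93 probe set had a day 4 difference of -0.62 ± 0.17 (adjusted p = 0.065). Clec14a, a C-type lectin of the endothelial surface, was called on day 14 only, with 0.29, -0.046, 0.099 and 0.14 against 0.75, 0.74, 1.40 and 1.63. The treated adrenals lay below all controls, with a difference of -1.01 ± 0.31 (adjusted p = 0.045), and the call was lost without any 1 of 6 of the 8 animals, with adjusted p up to 0.16.

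**Figure D2:**
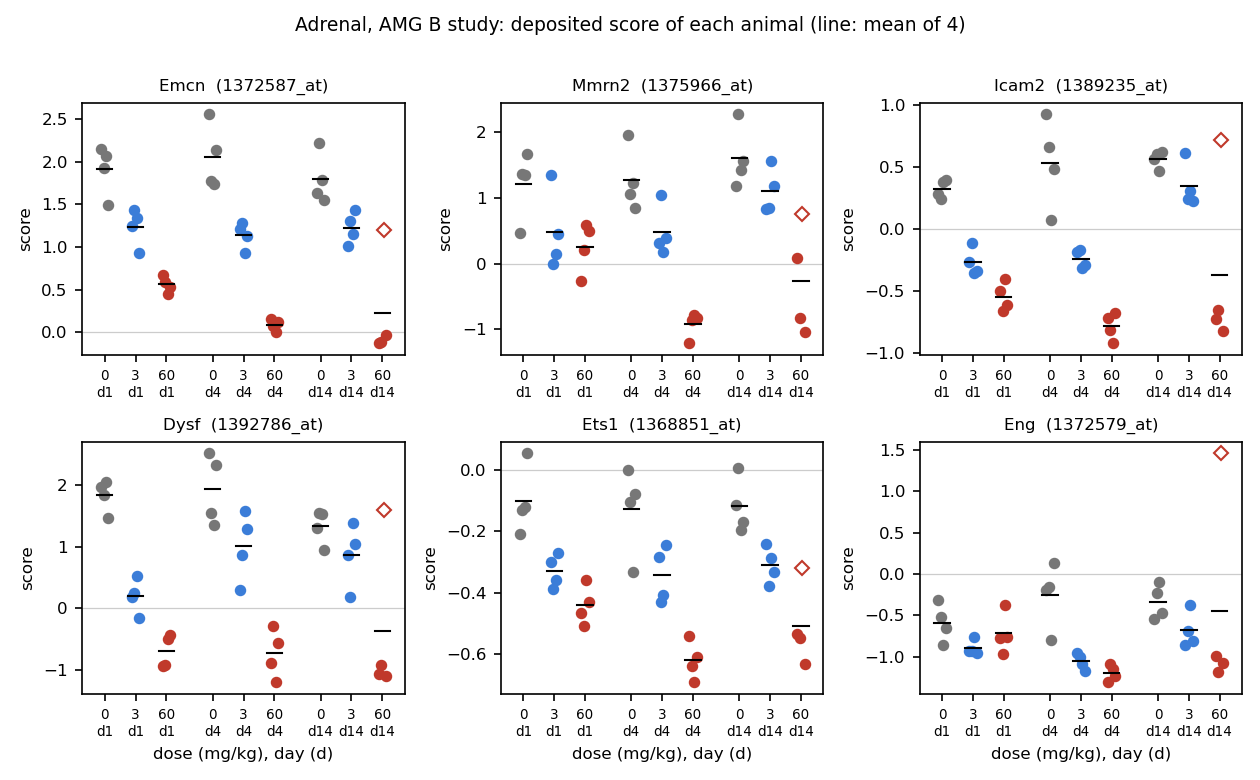
Adrenal scores of Emcn, Mmrn2, Icam2, Dysf, Ets1 and Eng in the AMG B study, 1 point per animal, by dose (0, 3 and 60 mg/kg) and day (d1, d4, d14), with a line at the mean of 4 animals; the open diamond is animal 35. Emcn at 60 mg/kg lay between -0.00068 and 0.16 on day 4, against 1.74 to 2.55 in controls.

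In the membrane and caveolae group the differences of all 9 probe sets were negative on day 1, and 2 were called lower on each day. Both called probe sets belong to Dysf, which encodes dysferlin, a membrane repair protein also present in muscle, and which lies at chr4:118048460-118248273. The first Dysf probe set had -0.94, -0.93, -0.50 and -0.44 on day 1 at 60 mg/kg, against 1.97, 1.84, 2.06 and 1.48 in controls. On day 4 it had -0.89, -0.29, -1.21 and -0.56 against 2.52, 1.56, 1.35 and 2.34. On both days the groups were separated by more than either group's own range. The differences were -2.54 ± 0.43 (adjusted p = 0.0020) and -2.68 ± 0.43 (adjusted p = 0.00034). The second Dysf probe set gave -2.05 ± 0.38 on day 1 (adjusted p = 0.0072) and -2.55 ± 0.38 on day 4 (adjusted p = 0.00013). On day 14 the first Dysf probe set had -1.07, -0.93, 1.61 and -1.10 against 1.30, 1.55, 1.53 and 0.94. Animal 35 was above every control, and the other 3 treated adrenals were below all of them. The day 14 differences were -1.71 ± 0.43 (adjusted p = 0.010) for the first and -1.75 ± 0.38 (adjusted p = 0.0032) for the second. Without animal 36 the adjusted p of the first was 0.054.

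Cav1 and Cav2, which encode caveolins of the endothelial surface, had 7 probe sets, and none was called in adrenal. On day 4 their differences ran from -0.76 to -0.44 and on day 14 from 0.21 to 0.50. Without animal 35 the day 14 differences ran from -0.16 to 0.11, and 6 of the 7 were negative.

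Of the transcription factors, Ets1, an ETS family activator of endothelial genes, was called lower on all 3 days. On day 4 it had -0.54, -0.64, -0.69 and -0.61 at 60 mg/kg against -0.0012, -0.10, -0.33 and -0.077 in controls. On day 14 it had -0.54, -0.55, -0.32 and -0.63 against -0.11, 0.0058, -0.20 and -0.17. The groups did not overlap on either day, although the differences were small in score. The differences were -0.34 ± 0.073 on day 1 (adjusted p = 0.025), -0.49 ± 0.073 on day 4 (adjusted p = 0.00013) and -0.39 ± 0.073 on day 14 (adjusted p = 0.00060). The day 1 call was lost without any 1 of 6 of the 8 animals, with adjusted p up to 0.095. Sox18, a SOX factor of vessel and lymphatic development, averaged -0.48 ± 0.18 on day 4 against 1.06 ± 0.84 in controls (SD, n = 4), with an adjusted p of 0.052.

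None of the 11 receptor and signalling probe sets and none of the 7 haemostasis probe sets was called in adrenal on any day. Ramp2, the accessory protein of the adrenomedullin receptor, averaged 0.17 ± 0.044 on day 4 at 60 mg/kg against 1.28 ± 0.30 in controls, with no overlap and an adjusted p of 0.058. Eng, the endothelial co-receptor endoglin, had -1.31, -1.09, -1.15 and -1.23 on day 4 against -0.19, -0.16, -0.79 and 0.13. All treated adrenals were below all controls, with a difference of -0.94 ± 0.29, but the adjusted p was 0.12. The SE of Eng is shared by all adrenal groups and holds the spread of animal 35 on day 14. On day 14 Eng had -1.0, -1.18, 1.46 and -1.07 against -0.55, -0.23, -0.093 and -0.47. Animal 35 was the highest of the 8, and the other 3 treated animals were the lowest. The day 14 difference was -0.11 (adjusted p = 0.91) with animal 35, and -0.75 (adjusted p = 0.0017) without it.

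Pecam1, the adhesion molecule CD31 that marks endothelium and also platelets and leukocytes, was not called in any adrenal comparison. On day 4 it had 0.93, 0.010, 0.11 and 0.14 at 60 mg/kg against 2.07, 1.94, 1.25 and 0.77, so that 1 treated adrenal lay within the control range. Its difference there was -1.21 ± 0.35 (adjusted p = 0.085). On day 14 it had -0.020, 0.045, 2.92 and -0.062 against 0.065, 0.24, 0.29 and 0.30. The difference of 0.50 (adjusted p = 0.49) turned to -0.24 without animal 35.

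Leaving out animal 35 raised the day 14 adrenal count at 60 mg/kg to 14 of 56, all lower, with 4.96% of all probe sets called. Esam, Erg, Ramp2, Eng, Cd93, Sox17, Egfl7 and Sox18 were then called, 1 probe set each, and Clec14a was no longer called (adjusted p = 0.085). Emcn, Icam2, Mmrn2, Ets1 and both Dysf probe sets were called with and without that array. With any 1 animal of the compared groups left out, the day 1 count was between 3 and 5. The day 4 count was between 6 and 8. Animal 35, a day 14 animal, was not left out for these days. With only the compared groups in the fit, the counts were 3, 3 and 0 on days 1, 4 and 14. For the day 1 and day 4 refits and for the fits of only the compared groups, the share of all probe sets called is not given here. Those counts therefore have no background to compare with.

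Genes of the endothelium outside the 37 moved in the same tissue. Of 52 probe sets for 26 other endothelial genes, 3 were called lower on day 1 (Tek, Kdr and Flt1, receptors for angiopoietins and VEGF), 11 on day 4 and 9 on day 14, when 2 were called higher. Some markers of other cell types were also called lower on day 4. The lowest, median and highest mean scores were -1.20, -1.12 and -1.11 at 60 mg/kg against -0.97, -0.90 and -0.81 in controls for macrophage markers (0 of 9 called). They were -1.34, -1.12 and -1.06 against -0.91, -0.71 and -0.47 for erythroid markers (1 of 6 called lower, Hbb), and -0.26, -0.18 and -0.032 against 0.18, 0.34 and 0.53 for pericyte and smooth muscle markers (2 of 12 called lower, Rgs5 and Pdgfrb). Adrenal cortex markers ranged from 1.28 to 1.45 against 1.22 to 1.32, with none called. On day 1, 3 of 9 macrophage probe sets were called lower (C1qa, C1qb and C1qc), and on day 14, 5 of 9. The part of these other cells in the endothelial values was not tested.

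At 3 mg/kg of AMG B no endothelial probe set was called in adrenal by limma on any day. Of all probe sets, 0.00644% were called on day 1, 0.0354% on day 4 and 0.00322% on day 14. At an unadjusted p under 0.05, 13 of the 56 were lower on day 1, 11 on day 4 and 3 on day 14, and none was higher, where 4.79%, 6.28% and 5.89% of all probe sets passed that p in either direction. All 4 treated animals lay below all controls for 12, 9 and 4 of the 56, against 1.75%, 1.84% and 1.64% of all probe sets. The doses share their control animals, so their differences are given side by side only. On day 4 the Emcn scores were 2.55, 1.77, 1.74 and 2.14 at 0 mg/kg, 1.21, 1.28, 0.93 and 1.13 at 3 mg/kg, and 0.16, 0.074, -0.00068 and 0.12 at 60 mg/kg. The 3 doses occupied 3 separate ranges, with the low dose between the others. The low-dose difference was -0.91 ± 0.21 (adjusted p = 0.11), beside -1.96 at 60 mg/kg.

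On day 14 the 60 mg/kg adrenals were set directly against the 3 mg/kg adrenals, where 4.5% of all probe sets were called. Of the 56 endothelial probe sets 4 were called lower and none higher. Emcn differed by -0.99 (adjusted p = 0.0029), Mmrn2 by -1.37 (adjusted p = 0.0086), the second Dysf probe set by -1.54 (adjusted p = 0.012) and the called Icam2 probe set by -0.72 (adjusted p = 0.017). Icam2 at 3 mg/kg had 0.61, 0.24, 0.30 and 0.22, above the 3 treated adrenals other than animal 35. Without animal 35 the count was 8, with 3.74% of all probe sets called. Calls were lost for Mmrn2 without animal 36, for Dysf without animal 31, 34 or 33, and for Icam2 without animal 29, 34, 36 or 33, with adjusted p up to 0.060, 0.061 and 0.099.

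**Figure D3:**
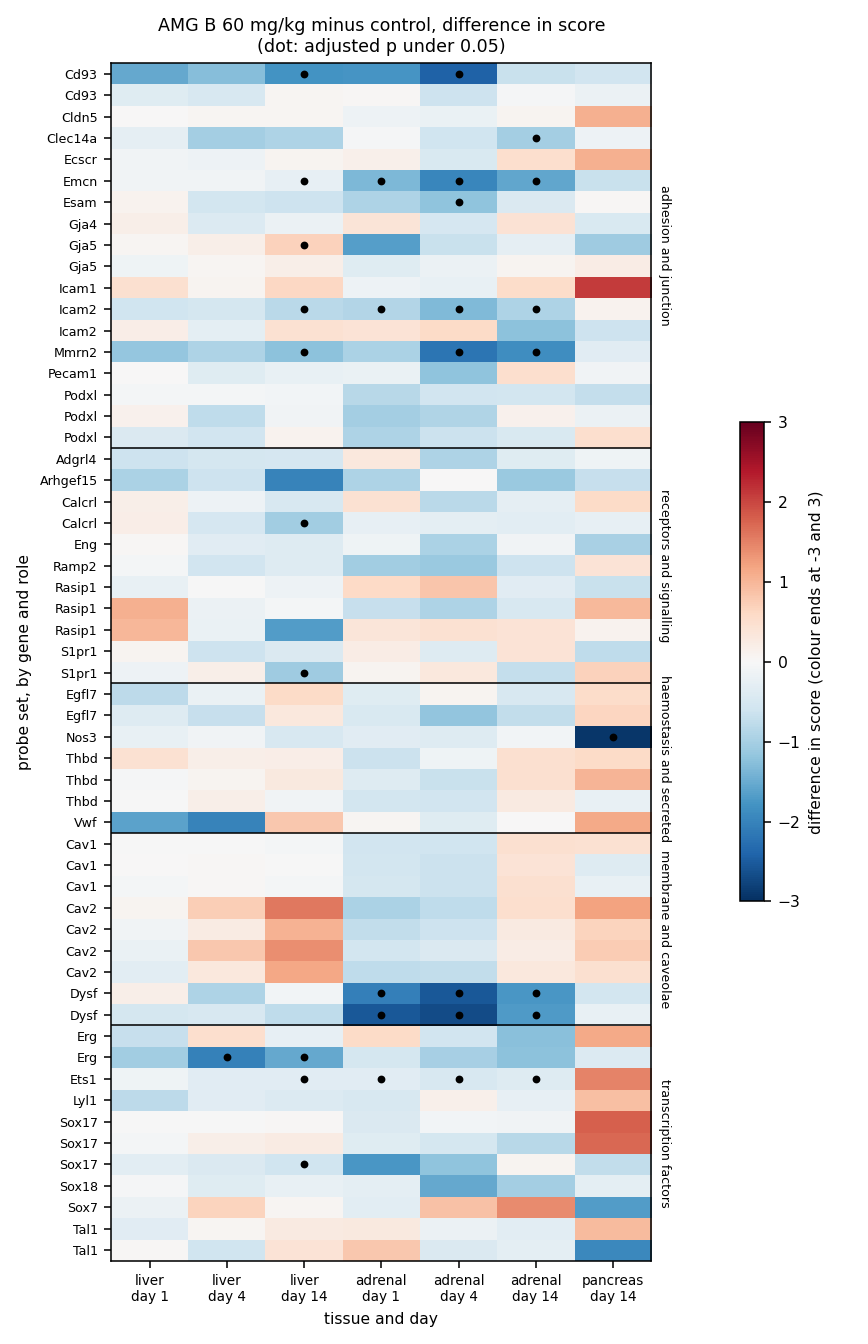
Difference in score, AMG B 60 mg/kg minus control, for the 56 endothelial probe sets (down the page, in 5 role groups) in liver, adrenal and pancreas by day (across); blue is lower and red higher in treated animals, the colour scale ends at -3 and 3, and a dot marks an adjusted p under 0.05. The 9 adrenal probe sets with a dot on any day are all blue, and Gja5 on liver day 14 is the only red cell with a dot.

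In liver, the endothelial calls of AMG B at 60 mg/kg fell mostly on day 14 in the main fit, and all but 1 of these were lower. At 60 mg/kg no endothelial probe set was called by limma on day 1, 1 on day 4 and 10 on day 14, of which 9 were lower and 1 higher. Of all probe sets 0.0548%, 0.68% and 5.66% were called on these days, 2.71% lower and 2.96% higher on day 14. On day 1, 8 of the 56 were lower and 2 higher at an unadjusted p under 0.05, as were 8.0% of all probe sets in either direction. The median difference over the 56 was -0.080, -0.21 and -0.096 on days 1, 4 and 14, and the treated livers lay below all controls for 11 of 56 on day 14, against 4.95% of all probe sets. No probe set was called on all 3 days.

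Among adhesion and junction genes, 4 of 18 probe sets were called lower and 1 higher in day 14 livers. The Icam2 probe set called in adrenal had -0.81, -0.77, -0.57 and -0.57 at 60 mg/kg against 0.26, 0.45, -0.20 and -0.0052 in controls. The groups were apart, with a difference of -0.81 ± 0.14 (adjusted p = 0.00081). The other Icam2 probe set differed by 0.45 ± 0.38 and was not called. The Cd93 probe set called in adrenal had -0.65, -0.65, 0.47 and 0.18 against 2.50, 2.72, 0.60 and 0.74. The controls themselves fell into a high and a low pair, yet each lay above every treated liver. The difference was -1.80 ± 0.37 (adjusted p = 0.0035), while the other Cd93 probe set differed by 0.056 ± 0.23. Emcn, whose liver scores were below those in adrenal, had -0.85, -0.90, -0.92 and -0.85 against -0.63, -0.51, -0.72 and -0.67. There was no overlap, and the difference was small in score, at -0.25 ± 0.057 (adjusted p = 0.0086).

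Mmrn2 had -0.52, -0.43, -0.25 and -0.76 in day 14 livers at 60 mg/kg against 0.92, 1.75, 0.36 and -0.035 in controls. The lowest control lay just above the highest treated liver, and the difference was -1.24 ± 0.35 (adjusted p = 0.035). The call was lost without animal 33, 34, 36, 26 or 25, with adjusted p up to 0.16. Gja5 encodes connexin 40, a gap junction protein of arterial endothelium, and was the 1 gene called higher. At one of its 2 probe sets it had 0.40, 0.62, 0.088 and -0.050 against -0.64, -0.33, -0.39 and -0.31, all treated livers being above all controls. The difference was 0.68 ± 0.13 (adjusted p = 0.0021). Its other probe set differed by 0.18 ± 0.19 and was not called.

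The liver transcription factors gave 3 lower calls of 11 on day 14. Erg, the ETS factor that maintains endothelial identity, had -0.45, 0.25, -0.30 and -0.42 at one of its 2 probe sets against 1.04, 1.80, 1.10 and 1.28. It was also the single member called on day 4, with -0.83, -1.01, -1.39 and -1.13 against 0.79, 0.51, 1.10 and 1.30. On both days the groups were well apart. The differences were -1.54 ± 0.40 on day 14 (adjusted p = 0.020) and -2.02 ± 0.40 on day 4 (adjusted p = 0.010), and the day 14 adjusted p was 0.072 without animal 26. The other Erg probe set differed by -0.25 ± 0.62 on day 14 and by 0.49 ± 0.62 on day 4. Ets1 had -0.19, -0.20, -0.10 and -0.16 on day 14 against 0.060, 0.24, 0.22 and 0.24. All treated livers were below all controls, with a difference of -0.35 ± 0.090 (adjusted p = 0.019), and the adjusted p rose to at most 0.054 without animal 28 or 26. Sox17, an arterial SOX factor, had -1.22, -0.76, -1.15 and -1.36 at one of its 3 probe sets against -0.54, -0.25, -0.70 and -0.62. The groups did not overlap, and the difference was -0.60 ± 0.16 (adjusted p = 0.024), and the call was lost without animal 33, 36, 26 or 25, with adjusted p up to 0.097. Its other probe sets differed by 0.25 ± 0.52 and 0.040 ± 0.29.

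Of the 11 receptor and signalling probe sets, 2 were called lower in day 14 livers. S1pr1, the sphingosine 1-phosphate receptor that stabilises vessel junctions, had 0.73, -0.038, -0.91 and -0.19 at one of its 2 probe sets against 0.64, 0.49, 1.14 and 1.63. The highest treated liver lay inside the control range. The difference was -1.08 ± 0.29 (adjusted p = 0.025), and the call was lost without animal 36, 28, 27 or 35, with adjusted p up to 0.11. Calcrl, which pairs with RAMP2 to bind adrenomedullin, had 0.94, 0.68, -1.50 and 0.59 at one of its 2 probe sets against 1.22, 1.45, 1.28 and 0.93. The -1.50 was the liver of animal 35, and the highest treated value overlapped with the lowest control. The difference was -1.04 ± 0.29 (adjusted p = 0.031), and -0.48 without animal 35, and the call was lost without animal 26, 25, 27 or 35, with adjusted p up to 0.091. The other probe sets of S1pr1 and Calcrl differed by -0.44 ± 0.36 and -0.48 ± 0.27.

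No haemostasis, membrane or caveolae probe set was called in liver. Cav2, a caveolin, had day 14 differences between 1.05 and 1.58 at its 4 probe sets, with adjusted p of 0.071 at the lowest. Pecam1 had -0.84, -0.80, -0.28 and -0.74 at 60 mg/kg on day 14 against -0.43, -0.17, -0.63 and -0.53. Animal 35 at -0.28 was the 1 treated liver inside the control range, and the difference of -0.22 (adjusted p = 0.26) had an adjusted p of 0.038 without it. Eng differed by -0.39 (adjusted p = 0.55). The day 14 count was between 5 and 10 with any 1 animal left out, and 0 with only the compared groups in the fit. With only the compared groups, day 4 held more calls than day 14. The share of all probe sets called is not given for these refits.

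**Figure D4:**
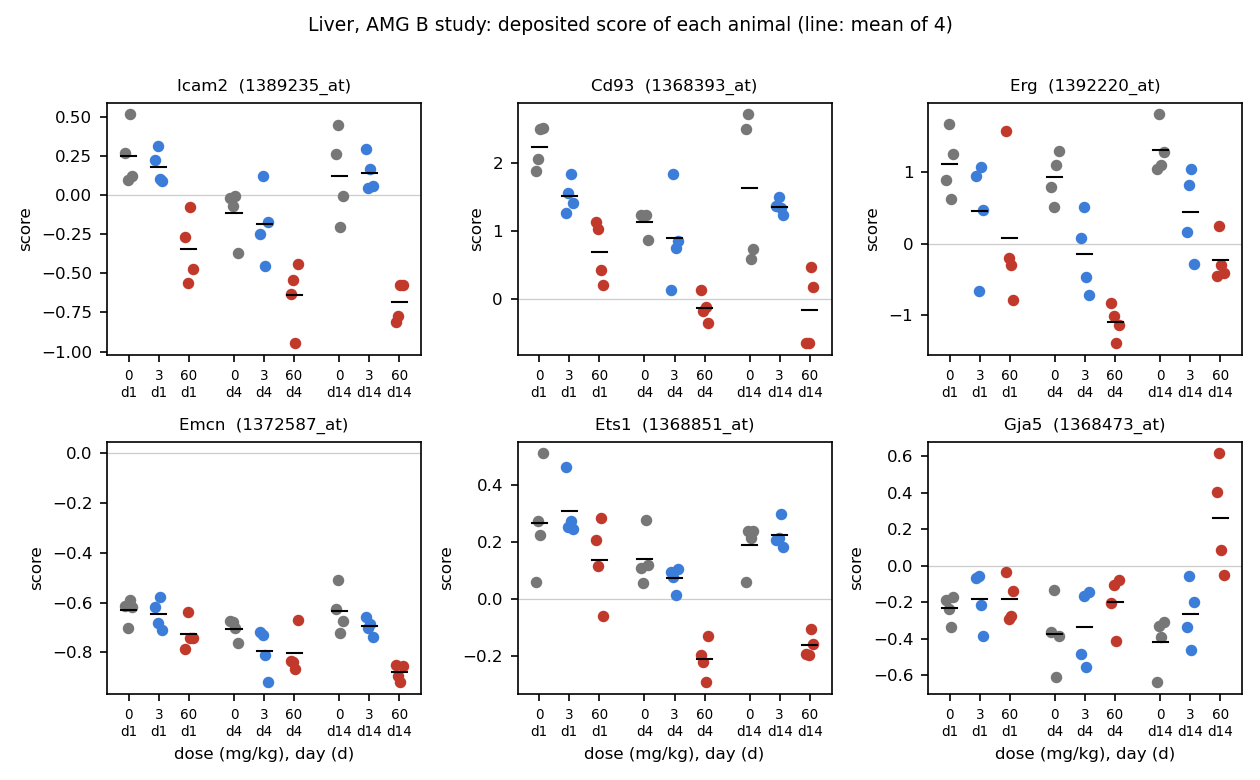
Liver scores of Icam2, Cd93, Erg, Emcn, Ets1 and Gja5 in the AMG B study, 1 point per animal, by dose (0, 3 and 60 mg/kg) and day (d1, d4, d14), with a line at the mean of 4 animals. On day 14 the 60 mg/kg livers lay below all controls for the first 5 genes and above them for Gja5.

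Other cell types changed in the same livers. Of 52 probe sets of other endothelial genes, 11 were called lower on day 14, led by Nrp1, Kdr and Lyve1, and 4 on day 4. Mean macrophage marker scores in day 14 livers were -0.86, -0.58 and 1.10 (lowest, median and highest) at 60 mg/kg against 0.63, 1.35 and 1.59 in controls, with 7 of 9 probe sets called lower, among them Mrc1, C1qa and Adgre1. Mean erythroid scores were -0.78, -0.37 and -0.15 against 0.77, 0.98 and 1.14, with 3 of 6 called lower, and 2 of 8 fibroblast probe sets were called lower. The part of these cells in the endothelial differences was not tested.

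At 3 mg/kg of AMG B no endothelial probe set was called in liver by limma, where 0.00966%, 0.0226% and 0.0% of all probe sets were called on days 1, 4 and 14. At an unadjusted p under 0.05, 2 were higher and none lower on day 1, 1 was higher and 5 lower on day 4, and 4 were lower and none higher on day 14. That p was passed by 4.57%, 5.76% and 6.5% of all probe sets. Against the 3 mg/kg livers, the day 14 livers at 60 mg/kg had 3 endothelial probe sets called lower and 2 higher, with 3.79% of all probe sets called. Icam2 differed by -0.82 (adjusted p = 0.0015), Ets1 by -0.39 (adjusted p = 0.012) and Cd93 by -1.52 (adjusted p = 0.017), and Gja5 by 0.53 (adjusted p = 0.020). Icam1, the adhesion molecule induced by inflammation, had 1.97, 2.31, 3.56 and 0.74 at 60 mg/kg against 0.75, 0.072, 0.44 and -0.13 at 3 mg/kg, with a slight overlap. It was higher by 1.86 (adjusted p = 0.049), a call lost without any 1 of 7 of the 8 animals, with adjusted p up to 0.19. The controls had 0.51, 1.94, 2.24 and 1.43, of which 3 lay within the 60 mg/kg range and 1 below it. The count was 2 at the lowest with 1 animal left out. The Cd93 call was lost without animal 34 or 30 (adjusted p up to 0.057), and the Gja5 call without animal 33, 34, 29 or 31 (adjusted p up to 0.085).

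In pancreas, 1 endothelial probe set of 56 was called at 60 mg/kg of AMG B on day 14, lower, in a tissue where 9.88% of all probe sets were called. The endothelial differences were evenly split, 28 negative and 28 positive, with a median of -0.032 against -0.017 over all probe sets. Without the lymphocyte-marked arrays 35 were negative, with a median of -0.34 against -0.027. Nos3, the endothelial nitric oxide synthase, had 0.52, 0.39, 0.19 and 0.021 at 60 mg/kg against 4.41, 5.71, 1.33 and 1.32 in controls. The groups did not overlap, but the controls were split between a very high and a moderate pair. The difference was -2.91 ± 0.73 (adjusted p = 0.016), and the call was lost without animal 25 or 26, the high controls, with adjusted p up to 0.060. It was 0.062 without the arrays with lymphocyte markers. Emcn had -0.52, -0.79, -0.59 and -0.59 against -0.21, -0.15, 0.57 and -0.030, with every treated animal below every control and a difference of -0.67 ± 0.21 (adjusted p = 0.052). Sox7, a SOX factor of early endothelium, averaged -0.72 ± 0.28 against 0.95 ± 0.47 (SD, n = 4, adjusted p = 0.053).

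Eng in pancreas had -0.0076, -2.04, -0.68 and -1.29 at 60 mg/kg against -0.28, -0.59, 0.45 and 0.29, with overlap through the highest treated animal. The difference was -0.97 ± 0.33 (adjusted p = 0.067), and -1.30 (adjusted p = 0.033) without the lymphocyte-marked arrays, when 6.69% of all probe sets were called. Against 3 mg/kg, where 3.68% of all probe sets were called, Eng was the 1 member called, lower with a difference of -1.25 ± 0.33 (adjusted p = 0.039). That call was lost without any 1 of 6 of the 8 animals, with adjusted p up to 0.13. Without the lymphocyte-marked arrays 4 members were called lower in that comparison, Dysf, Eng, Esam and Erg, with 5.43% of all probe sets called and 2 animals left at 3 mg/kg. Pecam1 had 3.02, -0.22, 0.62 and -0.44 at 60 mg/kg against 0.85, -0.10, 1.14 and 1.50, with wide overlap. The 3.02 was animal 33, whose lymphocyte marker mean was 5.24. At 3 mg/kg against control no endothelial probe set was called by limma, and 0.0226% of all probe sets were called. One had an unadjusted p under 0.05, lower, beside 8.79% of all probe sets.

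Acinar markers were lower in the AMG B pancreases at 60 mg/kg on day 14. Their mean scores were 1.55, 1.62 and 1.73 at 60 mg/kg (lowest, median and highest) against 2.30, 2.75 and 3.13 in controls, with 6 of 6 called lower. Fibroblast means were 0.62, 2.25 and 5.06 against 0.55, 1.07 and 1.61, with 1 of 8 called higher. Of 52 other endothelial probe sets 8 were called lower, led by Dll4, Notch4 and Ptprb, and 1 higher. The part of acinar and stromal RNA in the endothelial values was not tested.

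AMG A gave no endothelial call by limma in any tissue, dose or day. In liver, 0.366% of all probe sets were called at 30 mg/kg on day 1, 0.0693% on day 4 and 0.353% on day 14, and 0.0378%, 0.0126% and 0.0063% at 3 mg/kg. Of the 39 endothelial probe sets, those with an unadjusted p under 0.05 at 30 mg/kg were 3 lower on day 1, 2 lower and 3 higher on day 4, and 4 lower and 2 higher on day 14, beside 11.7%, 10.2% and 12.6% of all probe sets. At 3 mg/kg they were 3 lower on day 1, 2 lower and 2 higher on day 4, and 2 lower and 1 higher on day 14, beside 10.0%, 7.19% and 7.78%. Liver Emcn on day 14 had -0.79, -0.87, -0.94 and -0.86 at 30 mg/kg against -0.89, -0.82, -0.89 and -0.84 in controls. The ranges overlapped, and the difference was -0.0044 with a 95% interval of -0.094 to 0.085. Whether these low scores left room for a fall was not tested. Pecam1 had -0.81, -0.83, -0.84 and -0.81 against -0.92, -1.08, -0.89 and -0.92, the treated livers lying just above the controls, by 0.13 (adjusted p = 0.22). Eng differed by -0.036 (95% interval -0.46 to 0.39).

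In AMG A adrenals on day 14, 0.0% of all probe sets were called at either dose. At 30 mg/kg 3 endothelial probe sets were lower and 1 higher at an unadjusted p under 0.05, and at 3 mg/kg 1 was lower, with 5.8% and 3.47% of all probe sets. Emcn had 1.58, 1.06, 1.30 and 1.40 at 30 mg/kg against 1.67, 1.50, 2.08 and 1.72 in controls. One treated adrenal lay within the control range. The difference was -0.41 with a 95% interval of -0.83 to 0.019 (adjusted p = 0.88). Beside it, the AMG B difference at 60 mg/kg was -1.57 with an interval of -1.99 to -1.14. The high doses of the compounds differ, so these values were not tested against each other. Pecam1 differed by -0.15 and Eng by -0.30 at 30 mg/kg of AMG A, with 95% intervals of -0.85 to 0.55 and -0.89 to 0.28. All adrenal groups share 1 estimate of spread per probe set, which holds the AMG B array of animal 35. For Pecam1 the SE was 0.35, where the SDs of the treated and control groups were 0.055 and 0.28.

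In AMG A pancreas 0.00322% of all probe sets were called at either dose. At 30 mg/kg 39 of the 56 endothelial differences were negative, with a median of -0.29 against 0.026 over all probe sets. At 3 mg/kg 43 were negative, with a median of -0.39 against 0.036. Of the 4 controls, which both doses share, 2 were lymphocyte-marked. Without the marked arrays, which left 2 controls, 41 were negative at 30 mg/kg and 44 at 3 mg/kg, with medians of -0.51 and -0.35. With all arrays 2 and 1 had an unadjusted p under 0.05, all lower, with 6.72% and 3.67% of all probe sets. Pecam1 had -0.21, 3.05, -0.035 and 1.17 at 30 mg/kg against 4.31, 0.84, 3.76 and 2.90 in controls. Of the lymphocyte-marked animals, 1 treated had 3.05 and 2 controls had 4.31 and 3.76. The difference was -1.96, and -1.56 (adjusted p = 0.61) without them. Eng had -1.76, -1.08, -1.18 and -1.25 against -0.38, -0.42, -0.47 and -0.56, with all treated below all controls and a difference of -0.86 (adjusted p = 0.65). Emcn differed by 0.025 (95% interval -0.42 to 0.47), and by -0.26 without the marked arrays. No endothelial probe set was called by limma at 30 against 3 mg/kg of AMG A in liver, adrenal or pancreas, where 0.063%, 0.0% and 0.00966% of all probe sets were called. At an unadjusted p under 0.05 there were 2 higher and 2 lower in liver, 1 higher and 2 lower in adrenal, and 1 lower in pancreas, with 9.93%, 5.37% and 5.42% of all probe sets.

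The compounds were compared at their shared dose of 3 mg/kg on day 14, in 2 tissues. The difference between the AMG A effect and the AMG B effect gave no endothelial call by limma in adrenal, where 0.00644% of all probe sets were called, or in pancreas, where 0.0% were. At an unadjusted p under 0.05 there was no endothelial probe set in adrenal, and 1 higher and 5 lower in pancreas, where 4.59% and 9.37% of all probe sets passed it. For Emcn in adrenal the AMG A effect minus the AMG B effect was 0.55 with a 95% interval of -0.057 to 1.15 (adjusted p = 1.0), and this does not show that the compounds act alike. For Eng in adrenal it was 0.23 (-0.59 to 1.06) and for Pecam1 -0.10 (-1.09 to 0.89). In pancreas it was 0.086 for Emcn (-0.55 to 0.72), -0.68 for Eng (-1.66 to 0.29) and -3.19 for Pecam1 (-5.70 to -0.68, adjusted p = 0.50). Lymphocyte-marked arrays in this comparison were 2 controls of the AMG A study and 2 animals at 3 mg/kg of AMG B. Without them and the other lymphocyte-marked arrays the Pecam1 effect of 3 mg/kg in pancreas was -1.30 for AMG A and -0.092 for AMG B.

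The change of the high-dose effect with time was tested as the day 14 effect minus the day 1 effect. No endothelial probe set was called by limma in AMG B liver, AMG B adrenal or AMG A liver, where 0.193%, 1.16% and 0.0% of all probe sets were called. At an unadjusted p under 0.05, 4 were higher and 3 lower in AMG B liver, 10 higher and 4 lower in AMG B adrenal, and 1 higher and 2 lower in AMG A liver, with 11.4%, 13.7% and 4.75% of all probe sets. The adrenal values include the day 14 array of animal 35 and are not given here without it. Over the 56 endothelial probe sets, the median day 14 adrenal difference was -0.27 with that array and -0.56 without it. For Emcn in adrenal the difference between the days was -0.22 with a 95% interval of -0.82 to 0.38. Of the 9 adrenal probe sets called lower on any day, 5 were called on all 3 days, belonging to Dysf, Emcn, Ets1 and Icam2. The share of all probe sets called lower on all 3 days was not determined, so this count has no background to compare with.

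Tissues were compared on day 14 at 60 mg/kg of AMG B. Emcn, Ets1, Icam2 and Mmrn2 were called lower in both adrenal and liver, among 7 probe sets called lower in adrenal and 9 in liver. The share of all probe sets called lower in both was not determined, so this overlap has no background to compare with. The effect itself differed between liver and adrenal for 1 endothelial probe set, with 1.04% of all probe sets called. Emcn was lowered less in liver, with an effect difference of 1.32 (adjusted p = 0.028), and an adjusted p of 0.061 with the animal as a block. Control Emcn averaged -0.63 in liver and 1.80 in adrenal. Whether the low liver scores left room for a fall of the adrenal size was not tested. Between liver and pancreas, 2 probe sets were called with 9.31% of all called. They were 1 of the 2 probe sets of Tal1, a haematopoietic and endothelial transcription factor, at 2.35 (adjusted p = 0.021), and the Gja5 probe set called in liver, at 1.75 (adjusted p = 0.032). Both kept their call with the block, at 0.013 and 0.048. That Tal1 probe set had -1.74, -1.30, -2.41 and -2.61 in pancreas at 60 mg/kg against 0.83, -0.66, -1.03 and 0.56, without overlap. The other Tal1 probe set went the other way in pancreas, by 0.94 ± 0.58 (adjusted p = 0.32 by limma). Between adrenal and pancreas 1 was called with 9.55% of all called, Nos3 at 2.84 (adjusted p = 0.043, and 0.052 with the block). Each of these 4 calls was lost when any 1 of at least 4 of the 8 animals was left out, with adjusted p up to 0.17. Without the adrenal array of animal 35, the liver and adrenal effects differed for Emcn (1.64, adjusted p = 0.00033) and the second Dysf probe set (2.27, adjusted p = 0.013). The adrenal and pancreas effects then differed for 4 probe sets, all lowered more in adrenal, of Emcn (-1.22, adjusted p = 0.0021), Dysf (2 probe sets) and Sox17, and Nos3 was no longer called (adjusted p = 0.11). The share of all probe sets called without that array is not given here, so both counts have no background to compare with. For 30 mg/kg of AMG A no endothelial probe set differed between adrenal and pancreas by limma, and 0.00644% of all probe sets were called. With an unadjusted p under 0.05 there were 5 higher and 3 lower, beside 8.09% of all probe sets.

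**Figure D5:**
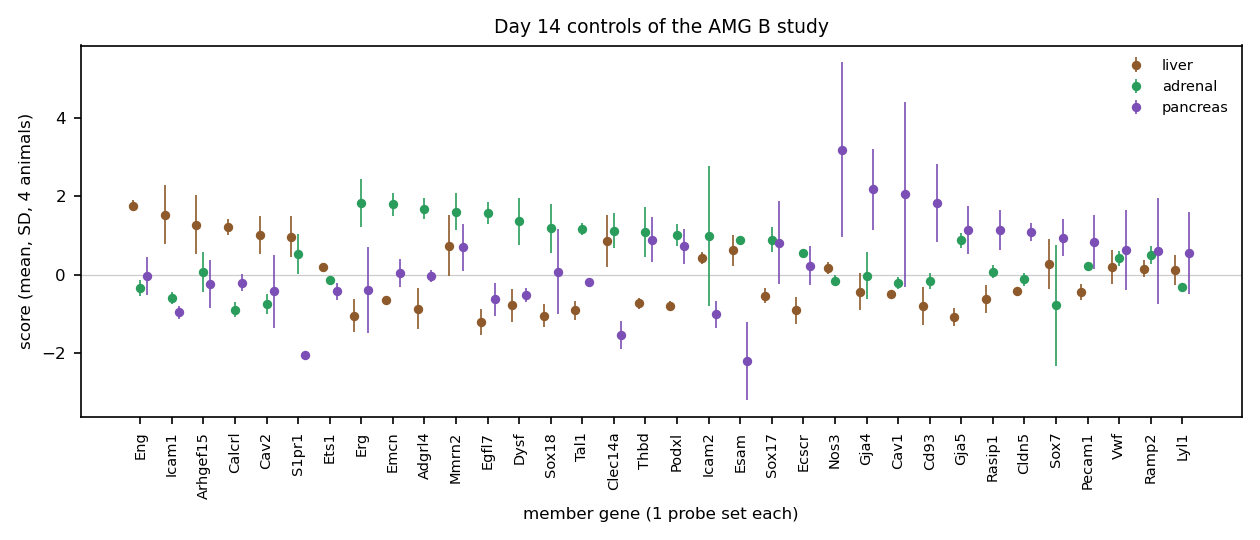
Mean score and SD of 4 control animals of the AMG B study on day 14 for 34 endothelial genes, 1 probe set each, in liver (brown), adrenal (green) and pancreas (purple), sorted by the tissue with the highest mean. The probe set shown for a gene is the one whose scores depended most on tissue. Emcn averaged 1.80 in adrenal, -0.63 in liver and 0.046 in pancreas.

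The baseline of these genes differed between organs. In untreated day 14 animals, 22 of 56 endothelial probe sets were called between liver and adrenal (9 higher and 13 lower in liver), 27 between liver and pancreas (14 higher and 13 lower in liver) and 20 between adrenal and pancreas (13 higher and 7 lower in adrenal). Of all probe sets 43.6%, 54.2% and 57.6% were called, so the endothelial shares lie near or below those of all probe sets. Over all 56 probe sets, the highest mean was in adrenal for 24, in liver for 16 and in pancreas for 16. It exceeded both other tissues by test for 6, 7 and 6. With 1 probe set per gene, the highest mean was in adrenal for 15 of 34 genes, in pancreas for 12 and in liver for 7. It exceeded both other tissues by test for 5, 4 and 5. The probe set kept for a gene was the one whose scores depended most on tissue. That choice and the test drew on shared arrays, so the counts per gene describe the chosen probe sets only. Emcn was highest in adrenal at 1.80 ± 0.29, with 0.046 ± 0.36 in pancreas and -0.63 ± 0.092 in liver (SD, n = 4 each). Adgrl4, an adhesion receptor of angiogenic endothelium, followed the same order, with 1.69 ± 0.27, -0.039 ± 0.16 and -0.86 ± 0.52. Eng was highest in liver at 1.77 ± 0.14, with -0.032 ± 0.48 in pancreas and -0.34 ± 0.21 in adrenal, and the pancreas and adrenal did not differ by test (adjusted p = 0.59). Nos3 was highest in pancreas at 3.19 ± 2.22, with 0.18 ± 0.15 in liver and -0.14 ± 0.15 in adrenal. Since each score is relative to a probe set's own mean, these orders hold within a gene only.

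Probe sets of the same gene did not always move together. Of the 34 genes 15 had several probe sets, giving 30 pairs. Over the arrays of the larger table the correlation within a pair ran from -0.36 (Cd93) to 0.98 (Cav1), with a median of 0.50, and was above 0.8 for 10 pairs and below 0.2 for 10. These pairs share arrays, tissues and treatments, so the values describe the probe sets and carry no test. After group means were removed, the mean correlation between pairs of endothelial genes was 0.25 in AMG B adrenal, against 0.0013 over pairs of all probe sets, and 0.043 without the array of animal 35. It was 0.036 in AMG B liver, 0.066 in AMG A liver and 0.064 in AMG A adrenal. In pancreas it was 0.19 for AMG B and 0.15 for AMG A, with the lymphocyte-marked arrays included. Values without those arrays were not computed.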

How the data were processed

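RNA of single rat organs was labelled from 5 ug by the one-cycle protocol and hybridised to Affymetrix arrays, per the labels' protocols. The authors deposited 1 table of 15866 probe sets for the 36 AMG A livers and 1 of 31042 probe sets for all other arrays. Their values are scores, per the deposited values themselves: each probe set has a mean near 0 and an SD near 1 over the arrays, with probe sets in both tables brought to that scale over both together. The deposited scores ran from -9.50 to 11.85 in the larger and from -4.51 to 10.20 in the smaller table, with 0 missing values. No source used here names the software or the scaling behind them. Standardising removes each probe set's level and range, so neither fold changes nor signal over background could be derived. Precision is limited by how few arrays each group has. The SD over all probe sets of an array was 0.619 to 0.990 in liver, 0.822 to 1.15 in adrenal and 1.15 to 1.99 in pancreas. The design had assumed log2 values; the same test was used on the scores.

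Samples were grouped by tissue, study, dose and day from their titles. Gene names come from the platform annotation: 20826 probe sets of the larger table have 1 symbol, 436 several and 9780 none, and 12783, 312 and 2771 in the smaller. Probe sets with several symbols were not used as members. Tests used limma 3.58.1 in R 4.3.3 (lmFit, contrasts.fit, eBayes with trend, two-sided), with 1 fit for each of AMG A liver, AMG B liver, adrenal and pancreas and for the tissues of day 14 in each study. The 42 contrasts were each adjusted by Benjamini-Hochberg over all probe sets, at a threshold of 0.05. The steps were tested on simulated data. Tables were read with pandas 2.3.3 and figures drawn with matplotlib 3.10.9. Full values were given for up to 12 called probe sets per high-dose comparison on day 14, up to 6 on days 1 and 4 and up to 4 elsewhere, by smallest adjusted p. Adrenal day 4 had 8 calls, all of which are described, Esam and Cd93 beyond that limit. Pecam1, Emcn and Eng were read in every tissue on day 14, and other uncalled members were named after their values were seen. Of other lists up to 3 genes were named, by smallest adjusted p. The members, role groups and lists were chosen with earlier results of these data known. Where a tissue and another came from the same animal, by the animal numbers in the labels, deviations from group means correlated with a median of 0.0495 (liver and adrenal), 0.0149 (liver and pancreas) and 0.0227 (adrenal and pancreas) for AMG B and 0.0313 for AMG A, over 12 pairs each. Between different animals the medians ran from -0.002 to -0.0016. Alternatives were leaving out each animal of the compared groups in turn, quantile normalization, fitting the compared groups alone and 1 probe set per gene. Another was a filter (score above the array's 40th percentile on at least 4 arrays). Between tissues, the animal as a block and 1 variance per tissue were also used. Fits without the adrenal array of animal 35 and without 6 pancreas arrays were added after seeing the data.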

Additional observations from a re-analysis of the deposited data

Results flagged for a closer look

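In 150 groups of 4 animals tested for a single far value, chance gives about 1 in 20 where groups are independent. Several of these groups read the same arrays, so that rate is no test of the count. A far value was found in 17. Of these, 6 concern the adrenal of animal 35 (AMG B 60 mg/kg, day 14): its mean over the endothelial probe sets was 1.22, and its scores were 2.92 for Pecam1, 1.46 for Eng, 1.20 for Emcn, 0.712 for the called Icam2 probe set and 1.61 for the first Dysf probe set, each far above the other 3 animals. The liver of the same animal stood apart for Calcrl at -1.50. Mean endothelial scores stood apart for animal 22 in the 60 mg/kg adrenals of day 4 (-0.515), animal 30 in the 3 mg/kg adrenals of day 14 (0.142), animal 19 in the 3 mg/kg adrenals of day 4 (-0.123), animal 18 in the 3 mg/kg livers of day 4 (-0.048) and animal 1 in the control adrenals of day 1 (0.263). Emcn stood apart in AMG A pancreas for animal 3034 at 30 mg/kg (0.382) and control animal 3012 (0.775). Single control animals stood apart for Esam in adrenal on day 4 (1.66, animal 16), Ets1 in AMG B liver on day 14 (0.0599, animal 25) and Pecam1 in AMG A liver on day 14 (-1.08, animal 3010).

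The effect of 60 mg/kg AMG B on day 14 differed by test between liver and adrenal for Emcn (1.32), between liver and pancreas for 1 probe set each of Gja5 (1.75) and Tal1 (2.35), and between adrenal and pancreas for Nos3 (2.84), as effect in the organ named before minus effect in the organ named after. The main fit does not pair organs of the same rat. With the animal as a block, Emcn and Nos3 lost their call. In each of these comparisons the count fell to 0 at the lowest with 1 animal left out.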

How the results depend on the processing

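Of 80 named values, none of the 46 called ones changed sign under any alternative, and 14 of the 34 uncalled ones did. The counts in this section are of endothelial probe sets called. The share of all probe sets called in each alternative is not given beside them, so they show only how the counts move. With only the compared groups in the fit, AMG B 60 mg/kg counts were 3 in adrenal on days 1 and 4 and 0 on day 14, 3 in liver on day 4 and 0 on day 14, and 0 for 60 against 3 mg/kg in liver, adrenal and pancreas. In that setting the tissue effects gave 0 for liver against adrenal and for adrenal against pancreas, and control liver against adrenal gave 34. Of the 46 called named results, 37 lost their call there. The 43 of 80 named results that stayed on the same side of the threshold include the 34 uncalled ones. Quantile normalization gave 9 in adrenal on day 1, 1 in 3 mg/kg adrenal on day 4 and 2 in pancreas. It gave 1 for liver against pancreas and 2 for adrenal against pancreas, and 5 of the 46 called results lost their call. It turned Emcn to 0.0032 in AMG A liver and -0.0069 in AMG A pancreas at 30 mg/kg, and Pecam1 to 0.0014 in AMG B liver at 3 mg/kg, all on day 14. With 1 probe set per gene there were 3 in adrenal on day 1, 3 in pancreas, 3 for 60 against 3 mg/kg in liver, 0 for liver against pancreas and 2 for adrenal against pancreas. The filter gave 0 for 60 against 3 mg/kg in pancreas. One variance per tissue gave 1 for liver against pancreas and 0 for adrenal against pancreas. Without the lymphocyte-marked pancreas arrays there were 4 for 60 against 3 mg/kg in pancreas, 0 for adrenal against pancreas and 1 for AMG A adrenal against pancreas (Esam), and Emcn turned to -0.26 at 30 mg/kg of AMG A and Pecam1 to -0.092 at 3 mg/kg of AMG B in pancreas. Without the adrenal array of animal 35 there were 2 for liver against adrenal and 4 for adrenal against pancreas. The causes were not tested.

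With the animal as a replicate block, pairing organs of the same rat, the count was 0 for liver against adrenal and 0 for adrenal against pancreas, and no other count crossed 1.5 times. Each animal of the compared groups was also left out in turn. AMG B 60 mg/kg adrenal counts then ranged from 3 to 5 (day 1), 6 to 8 (day 4) and 6 to 14 (day 14). Liver counts ranged from 1 to 1 and 5 to 10 on days 4 and 14, and pancreas counts from 0 to 2. For 60 against 3 mg/kg they ranged from 2 to 8 in adrenal, 2 to 5 in liver and 0 to 3 in pancreas. Ranges were 0 to 2 for liver against adrenal, 0 to 2 for liver against pancreas, 0 to 4 for adrenal against pancreas, 0 to 2 and 0 to 1 for day 14 against day 1 in AMG B adrenal and liver, and 0 to 1 for AMG A 30 against 3 mg/kg in liver and for 3 mg/kg AMG B adrenal on day 4. Control tissues ranged from 17 to 18 (liver and adrenal), 19 to 23 (liver and pancreas) and 17 to 21 (adrenal and pancreas). Of 640 named results with an animal left out, 508 kept their direction and side of the threshold, and 3 gained a call. A call was lost by 97, where only called results could lose one, and 32 uncalled ones changed sign. Those that changed sign, all on day 14, ranged as follows. In AMG A liver, Eng ranged from -0.20 to 0.055 at 3 and -0.18 to 0.11 at 30 mg/kg, and Emcn from -0.023 to 0.023 and -0.030 to 0.020. Emcn ranged from -0.19 to 0.087 in AMG A adrenal at 3 mg/kg, and in AMG A pancreas from -0.15 to 0.14 at 3 and -0.060 to 0.24 at 30 mg/kg. In AMG B liver at 3 mg/kg, Pecam1 ranged from -0.064 to 0.089 and Eng from -0.083 to 0.26. In AMG B adrenal at 60 mg/kg, Pecam1 ranged from -0.24 (without animal 35) to 0.76 and Eng from -0.75 to 0.13. In AMG B pancreas, Emcn ranged from -0.24 to 0.021 at 3 mg/kg and Pecam1 from -0.85 to 0.30 at 60 mg/kg.

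Scores keep no level or signal over background, so dim probe sets could not be told from bright ones. Groups of 4 leave wide intervals, and uncalled members are not shown to be equal between groups.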
